A study of Mus musculus with 3 samples.

Results

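Lung pericytes were picked out of scRNA-Seq of whole lung from 3 C57BL/6 mouse pups at P14, each 1 library, that had lived in room air from day 1 to day 14. All 3 pups had the same treatment and the labels give no genotype beyond the strain, so mice 2, 3 and 4 are replicates of 1 condition. A cell was called a pericyte when it held at least 3 unique molecular identifiers (UMIs, each standing for 1 captured RNA molecule) of *Higd1b* and *Cox4i2* together, at most 4 of *Myh11*, at most 2 of *Aspn*, at most 1 of *Cdh5* and none of *Ptprc* or *Epcam*. Cells entered the rule when they had 200 or more detected genes and a mitochondrial share of UMIs no higher than 20%. It chose 82 of the 7642 cells that passed this filter, out of 9644 cells deposited. The cells were selected on these 7 genes, so the levels of those genes are given as a description and were not tested.

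Pericytes are the mural cells that wrap capillaries and share a basement membrane with the endothelium. They are held on the vessel by PDGF-B from ECs acting on PDGF receptor beta, take Notch signals from ECs through Notch3, and are known for control of capillary stability and tone. In lung they lie beside other mesenchymal cells that share many of their genes: smooth muscle cells around larger vessels and airways, myofibroblasts that lay down elastin in growing septa, and fibroblasts.

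Mouse 2 gave 42 pericytes of 2386 cells, mouse 3 gave 14 of 2601 and mouse 4 gave 26 of 2655. These were 1.76% (exact 95% binomial interval 1.27 to 2.37), 0.538% (0.295 to 0.901) and 0.979% (0.641 to 1.43) of the cells, a mean of 1.09% ± 0.619 (SD, n = 3). The share was highest in mouse 2 and lowest in mouse 3, and the intervals of those mice did not overlap. The intervals cover counting error only, and a share of dissociated cells need not be the share in the tissue. The deposited libraries held 23744510, 22476491 and 25192427 UMIs in mice 2, 3 and 4. Their pericytes held 203493, 76068 and 140431 UMIs, with medians of 5353.5, 5314.5 and 4722 UMIs per cell. Libraries 2 and 3 had 5 cell barcodes in common, libraries 2 and 4 had 2 and libraries 3 and 4 had 5, and none of these barcodes belonged to a pericyte.

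Both genes of the gate encode mitochondrial proteins: *Cox4i2* (chr2:152754173-152765037 in GRCm38, plus strand) is the second isoform of cytochrome c oxidase subunit 4, and *Higd1b* (chr11:102835849-102838040, plus strand) belongs to the hypoxia-inducible gene domain family. Of the 82 pericytes, 79 held *Higd1b*, 80 held *Cox4i2* and 77 held both. The sum of both genes ranged from 3 to 64 UMIs, with medians of 20, 20.5 and 19 in mice 2, 3 and 4, and 71 cells had 5 UMIs or more, 6 had 4 and 5 had 3. The 11 cells with 3 or 4 UMIs held 442 CPM of *Ndufa4l2* (counts of a gene per 1000000 UMIs), whereas the 23 cells just below the threshold, with 2 UMIs, held 79.0 CPM. *Pdgfrb* (844 and 803 CPM), *Postn* (161 and 217 CPM) and *Notch3* (121 and 79.0 CPM) did not set the 11 cells apart from the 23. One of the 11, the deepest pericyte, held 17180 of their 24884 UMIs, and the other 10 were at 1428 CPM of *Ndufa4l2*, 519 of *Pdgfrb*, 519 of *Postn* and 389 of *Notch3*. A further 96 cells with 3 UMIs or more were left out only by their *Myh11* or *Aspn* counts. Those 96 held 975 CPM of *Notch3*, 456 CPM of *Ndufa4l2* and 5996 CPM of *Acta2*, so cells that share pericyte genes but carry more smooth muscle RNA lie outside the 82. None of the 82 was among the 156 cells (2.04%) marked as doublets.

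The pericytes fell into 2 ranges of depth with no cell between 1591 and 2918 UMIs. The 52 deep cells (26, 10 and 16 in mice 2, 3 and 4) held 391754 of the 419992 UMIs and had a median of 9.31% mitochondrial UMIs. Counted alone they were 1.09%, 0.384% and 0.603% of the kept cells of mice 2, 3 and 4. All pericytes were 1.76%, 0.538% and 0.979%. The 30 shallow cells (16, 4 and 10) had a median of 0.706% mitochondrial UMIs and 17 of them were under 1%. In the comparator classes described below only 3 of 157, 6 of 697 and 1 of 27 cells had fewer than 2000 UMIs, so depth differed between pericytes and comparators. Repeating the comparisons on the deep pericytes alone gave 1959, 2109 and 1741 genes called against the 3 stromal classes in place of 1962, 2149 and 1741. The deep cells gave most UMIs of the pericyte sums, so this repeat could change little. It did not match depth, since deep pericytes had a median of 7747 UMIs per cell. The *Myh11* (smooth muscle), *Aspn* (myofibroblast) and fibroblast gates had medians of 12210, 10431 and 12153. The part of depth in the calls was not tested.

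**Figure D1:**
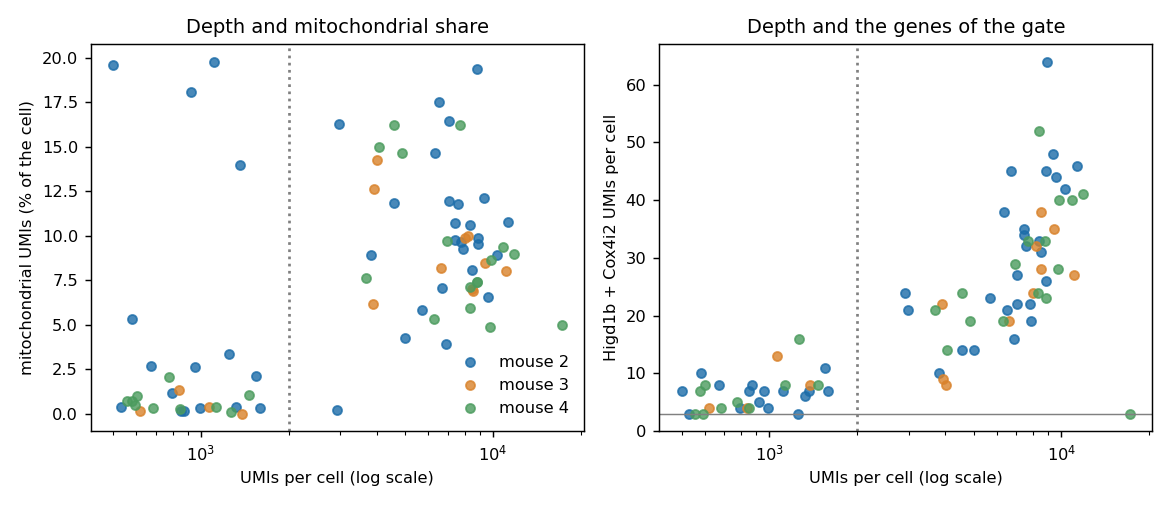
Each point is 1 of the 82 pericytes, coloured by mouse. The x axis of both panels is the number of UMIs in the cell on a log scale with a dotted line at 2000, the left y axis is the percent of mitochondrial UMIs and the right y axis is the UMI sum of *Higd1b* and *Cox4i2* with a line at the threshold of 3. No cell lies between 1591 and 2918 UMIs, and the deepest cell (17180 UMIs, mouse 4) sits on the threshold.

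Levels were computed as CPM of the UMIs summed over the pericytes of a mouse. The assay counts 1 tag at the 3′ end of each molecule, so levels need no correction for gene length. Other stromal cells were gated for comparison under the same limits on *Ptprc*, *Cdh5* and *Epcam*, all with at most 2 UMIs of *Higd1b* and *Cox4i2*. *Myh11*-high cells (at least 5 *Myh11* UMIs and at most 2 of *Aspn*, the smooth muscle gate) numbered 56, 40 and 61 in mice 2, 3 and 4. *Aspn*-high cells (at least 3 *Aspn* UMIs, the myofibroblast gate) numbered 252, 177 and 268. Fibroblasts (at least 5 UMIs of *Col1a1* and *Col1a2* and at least 2 of *Dcn*) numbered 9 in each mouse, so their sums rest on 27 cells. The *Myh11*-high cells also held a mean of 626 CPM of *Pdgfra*, a receptor known from fibroblasts and myofibroblasts, so that gate is not smooth muscle alone. The 1742 cells with at least 3 *Cd79a* UMIs and at least 1 of *Ptprc*, the B-cell gate, served as background for RNA free in the suspension.

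The markers of pericytes that the gate did not use were high in the sums over cells, to which the deep cells gave most UMIs. *Pdgfrb*, the receptor for PDGF-B, stood at 3720, 2748 and 3219 CPM in the pericytes of mice 2, 3 and 4, against 492 to 527 CPM in *Myh11*-high cells, 382 to 395 in *Aspn*-high cells and 95.9 to 329 in fibroblasts. *Notch3* stood at 1002, 1078 and 826 CPM against 166 to 207, 123 to 176 and 25.9 to 39.9 CPM. *Postn*, which encodes the matricellular protein periostin, stood at 6924, 6455 and 5918 CPM against 567 to 652, 720 to 792 and 25.9 to 758 CPM. For all 3 genes every pericyte value lay above every value of the other classes. In the order *Myh11*-high, *Aspn*-high, fibroblasts, the log2 fold changes were 2.62 ± 0.22 (SE), 2.99 ± 0.22 and 3.59 ± 0.26 for *Pdgfrb*. They were 2.30 ± 0.16, 2.63 ± 0.16 and 4.77 ± 0.29 for *Notch3*. For *Postn* they were 3.32 ± 0.42, 3.00 ± 0.41 and 3.62 ± 0.46. The largest of these 9 adjusted p-values was 1.2e-05 (edgeR quasi-likelihood test, Benjamini-Hochberg adjustment over all genes tested).

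In the shallow cells these markers were lower. The 3 markers summed to 2514 CPM in the 30 shallow cells and 11436 CPM in the 52 deep cells, 4.55 times as much. By mouse the sums were 3848, 1282 and 589 CPM in shallow cells of mice 2, 3 and 4. In deep cells they were 12305, 10766 and 10565 CPM, so the gap was smallest in mouse 2 and widest in mouse 4. *Pdgfrb* was found in 10 of the 30 shallow cells and in none of the 10 of mouse 4, *Postn* in 11 and *Notch3* in 6, whereas *Pdgfrb* was found in all 52 deep cells and *Postn* and *Notch3* in 51 each. Other genes known from mural cells were mixed. *Gucy1a3* was found in 29 and *Ndufa4l2* in 24 of the 30 shallow cells, whereas *Mcam* was at 248 and 2034 CPM in shallow and deep cells, *Cspg4* at 70.8 and 574 and *Trpc6* at 106 and 544 CPM.

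Markers of endothelial and immune cells were low, and epithelial markers were present. Of 13 endothelial markers, *Pecam1*, *Cdh5*, *Kdr*, *Car4*, *Aplnr* and *Gpihbp1* had no UMI in any pericyte (*Cdh5* being limited by the gate). Summed over the list, mice 2, 3 and 4 had 113, 52.6 and 128 CPM, whereas all other cells averaged 2377, and the most abundant member was the angiopoietin receptor *Tek* at 48.2 CPM. Of 13 immune markers 5 were at 0, the sum was 147, 105 and 49.8 CPM, and *Lyz2* led at 40.3 CPM. Of 13 epithelial markers 5 were at 0 and the sum was 644, 263 and 584 CPM. *Sftpc*, the surfactant gene of alveolar type 2 cells, made up most of it at 361 CPM, beside 185 CPM in *Myh11*-high cells, 197 in *Aspn*-high cells and 589 in fibroblasts, and its part in the comparisons was not tested. The epithelial sum was higher in shallow cells (2302 CPM) than in deep ones (429 CPM), and so was the immune sum (425 and 84.2 CPM). The endothelial sum was 106 and 107 CPM.

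Erythroid and mesothelial markers had no UMI. Markers of the stromal neighbours were present but lower than in those cells. The summed smooth muscle markers were 826, 749 and 570 CPM, led by *Des* at 470 CPM, with *Cnn1*, *Pln* and *Hhip* at 0, against a mean of 4986 CPM in *Myh11*-high cells. That list holds *Myh11*, a gene of both gates, which alone stood at 2402 CPM in *Myh11*-high cells. The summed myofibroblast markers were 432, 500 and 919 CPM, led by *Enpp2* at 358 CPM, against 6243 CPM in *Aspn*-high cells. Here the list holds *Aspn*, also a gene of both gates, which stood at 2171 CPM in *Aspn*-high cells. The summed fibroblast markers were 2870, 2708 and 2677 CPM, led by the collagen gene *Col1a2* at 1192 CPM, with *Dcn*, *Lum*, *Col13a1*, *Fgf10* and *Pi16* at 0, against 34708 CPM in fibroblasts. The fibroblasts were gated on *Col1a1*, *Col1a2* and *Dcn* of this list, and *Col1a1* alone stood at 15949 CPM in them. Part of each of these differences was therefore set by the gates.

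In sums over mice and classes, 924 of 7159 genes (12.9%) were higher in pericytes than in *Myh11*-high cells and 1038 (14.5%) were lower at an adjusted p under 0.05. Against *Aspn*-high cells 969 (13.5%) were higher and 1180 (16.5%) lower, and against fibroblasts 769 (10.7%) and 972 (13.6%). Against all other cells 1194 of 13986 genes (8.54%) were higher and 2057 (14.7%) lower. The balance of directions depended on the scaling. Library totals in place of TMM gave 978 higher and 972 lower against *Myh11*-high cells, 1051 and 1086 against *Aspn*-high cells, 938 and 840 against fibroblasts and 1497 and 1680 against all other cells, and the median log2 fold change of all genes moved from -0.01 to 0.15 against fibroblasts and from -0.40 to -0.22 against all other cells. Without mouse 2, which gave 42 of the 82 cells, 1293 genes were called against *Myh11*-high cells, 1389 against *Aspn*-high cells and 1583 against all other cells, and without mouse 4 the last was 2079.

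The same pericyte sums enter all 4 comparisons. These tests compare sets of cells cut by marker genes, and the p-values measure the spread between 3 mice, not whether the pericytes are a type of their own. The median log2 fold change of all genes was -0.06, -0.06 and -0.01 in the 3 stromal comparisons. The counts for each group of genes below stand beside these medians and the shares of all genes above. All 27 lists were chosen with earlier results of these data known, so a higher share in a list is not independent of the data.

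The sizes of many differences depended on how the comparator cells were gated. When *Myh11*-high cells with a *Pdgfra* UMI were left out, 32, 22 and 30 cells remained and 31 of 55 log2 fold changes against that class moved by over 1.5 times. Of the differences given in the text, those that became larger included *Pde5a* (4.15), *Angpt1* (4.75), *Kitl* (6.22), *Lamb1* (4.20), *Tbx2* (4.05), *Tbx5* (3.72), *Acta2* (-5.03) and *Tagln* (-3.93). Those that became smaller included *Notch3* (1.33), *Ndufa4l2* (4.26), *Mcam* (2.14), *Agtr1a* (6.25), *Kcnk3* (0.89), *Pdgfa* (1.24), *Nrarp* (2.26), *Ebf1* (1.77), *Epas1* (2.78) and *Pdzd2* (6.11), and each of these 18 kept its call. Not all did: *Heyl* (0.27), *Prkg1* (0.55), *Igf1* (-0.23) and *Vegfa* (-0.65) also became smaller and were no longer called. *Trpc6* had no UMI left in that class and *Edn3* had 2, too few for a fold change. Against fibroblasts gated without *Dcn*, the values were 7.27 for *Ndufa4l2*, 5.77 for *Notch3*, 4.87 for *Postn* and 2.45 for *Angpt1*. Both gates were chosen after seeing the data.

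**Figure D2:**
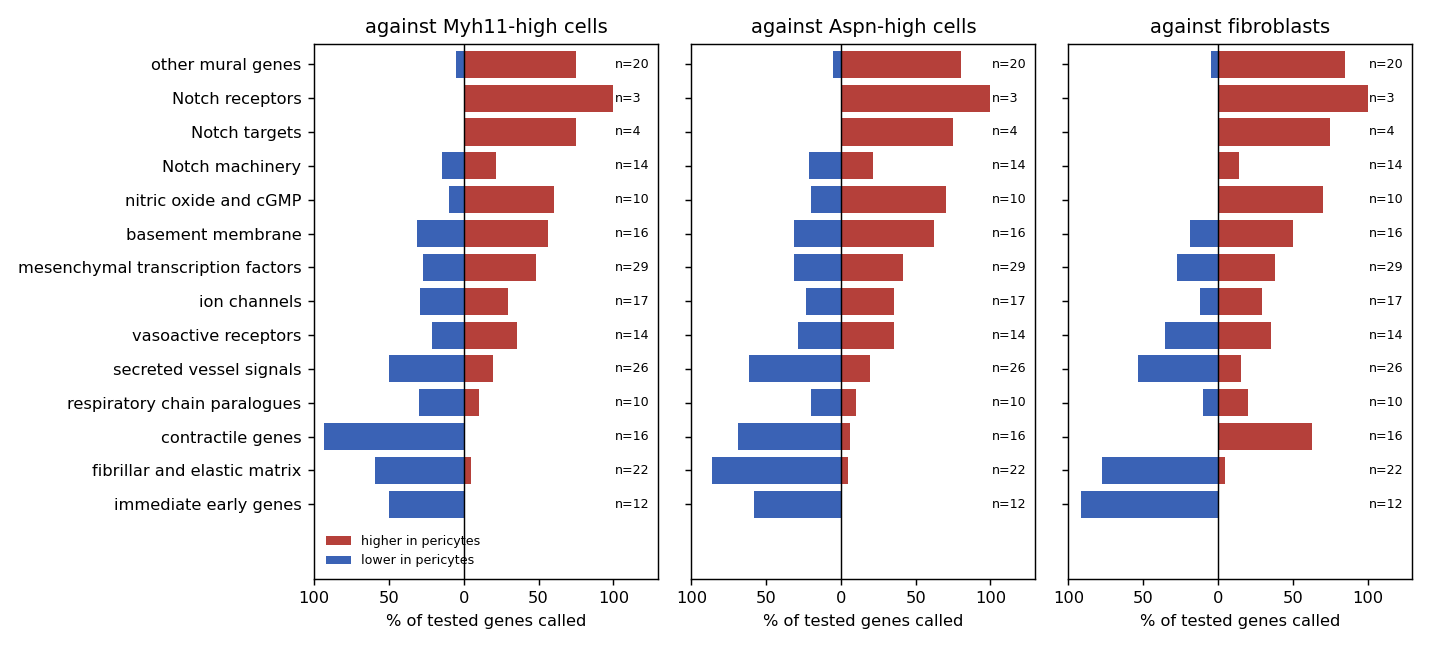
Bars give the percent of the tested genes of each list (n genes) that were called higher (right, red) or lower (left, blue) in pericytes at an adjusted p under 0.05, against *Myh11*-high cells, *Aspn*-high cells and fibroblasts. Mural and Notch receptor genes lie mainly on the higher side, and fibrillar matrix and immediate early genes on the lower side. Contractile genes lie on the lower side except against fibroblasts.

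Outside the gate, a pair of respiratory chain paralogues was exchanged in pericytes. *Ndufa4* (chr6:11900292-11907497, minus strand) encodes a subunit of cytochrome c oxidase, and *Ndufa4l2* (chr10:127514967-127517154, plus strand) is its paralogue, known as a hypoxia-inducible gene. *Ndufa4l2* was at 1327, 1183 and 1054 CPM in the pericytes of mice 2, 3 and 4, against a mean of 28.9 ± 8.81 CPM (SD, n = 3) in *Myh11*-high cells and ranges of 26.1 to 30.7 in *Aspn*-high cells, 39.9 to 51.8 in fibroblasts and 1.73 to 6.83 in *Cd79a*-high cells. *Ndufa4* ran the other way, at 14.7, 0 and 49.8 CPM in pericytes against 363 to 403, 331 to 349, 285 to 389 and 212 to 222 CPM. No pericyte value overlapped a value of these classes for either gene.

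The log2 fold change of *Ndufa4l2* was 5.33 ± 0.19, 5.34 ± 0.16 and 4.50 ± 0.25 against *Myh11*-high cells, *Aspn*-high cells and fibroblasts, with adjusted p-values of 5.92e-13, 4.34e-14 and 5.33e-10. That of *Ndufa4* was -4.04 ± 0.33, -3.90 ± 0.33 and -3.94 ± 0.37, with adjusted p-values of 2.33e-08, 2.36e-08 and 2.06e-07. The size of the *Ndufa4* difference depended on the gate: with 2 UMIs of the gate genes as the threshold the values were -1.73, -1.61 and -1.66, and without the deepest cell -5.30, -5.16 and -5.20. Without mouse 4 they were -5.13, -5.04 and -5.15. Cell by cell, 73 of 82 pericytes held *Ndufa4l2* without *Ndufa4*, 2 held both, 2 held *Ndufa4* alone and 5 held neither. The exchange was less complete in the 96 cells left out by *Myh11* or *Aspn*, of which 85 held *Ndufa4l2* (456 CPM) and 49 held *Ndufa4* (247 CPM). Among the 157 *Myh11*-high cells 125 held *Ndufa4* alone, 26 held both, 6 held neither and none held *Ndufa4l2* alone.

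Shares of cells depend on depth, so they were also taken after thinning each cell to 2000 UMIs, which left out the 30 shallow pericytes. *Ndufa4* was then found in 2.60% ± 3.57 (SD, n = 3) of pericytes, 51.8% ± 2.28 of *Myh11*-high cells and 33.6% ± 0.267 of *Cd79a*-high cells. *Ndufa4l2* was found in 87.7% ± 3.34, 5.75% ± 1.74 and 0.214% ± 0.142. Without thinning, *Ndufa4* was seen in 4.88% of pericytes and 96.2% of *Myh11*-high cells. At the same depth, *Ndufa4* was rarer in pericytes than in the B-cell gate, and *Ndufa4l2* stood above the background level of that gate.

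Of the 10 *Ndufa4* UMIs in pericytes, 6 came from the deepest cell (mouse 4, 17180 UMIs), which held 3 *Higd1b* UMIs, 32 of *Acta2* and none of *Cox4i2*, *Ndufa4l2*, *Postn* or *Notch3*. Without it the level of *Ndufa4* in mouse 4 was 8.11 CPM, and the mean over mice was 7.62 ± 7.38 CPM in place of 21.5 ± 25.6.

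The paralogues of the gate genes were not called in any stromal comparison. *Cox4i1*, the common isoform of cytochrome c oxidase subunit 4, was at 600, 644 and 563 CPM in pericytes, beside 2619, 1814 and 1951 CPM of *Cox4i2*. Its mean was 732 CPM in *Myh11*-high cells, 584 in *Aspn*-high cells and 519 in fibroblasts, with adjusted p-values of 0.105, 0.881 and 0.948. *Higd1a*, the paralogue of *Higd1b*, was at 98.3, 65.7 and 78.3 CPM beside 1804, 1748 and 1673 CPM of *Higd1b*, and its adjusted p-values were 0.769, 0.941 and 0.564. Of the 10 tested genes of this list 1 was higher and 3 were lower than in *Myh11*-high cells, with a median log2 fold change of -0.15. The lower ones were *Ndufa4* and 2 further oxidase subunits, *Cox7b* (102 CPM on average against 202) and *Cox6b1* (223 against 306).

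**Figure D3:**
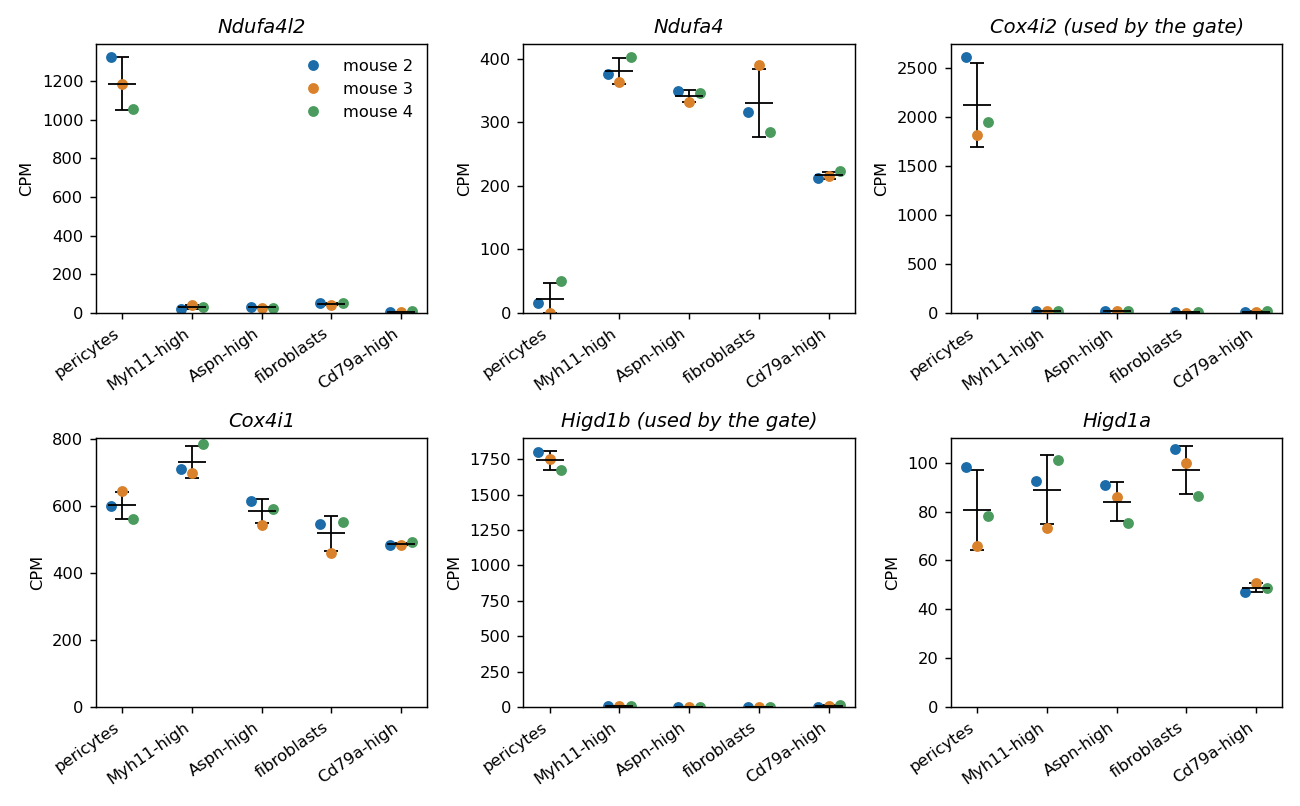
CPM of summed UMIs (y axes, from 0) of 3 pairs of respiratory chain paralogues in pericytes, *Myh11*-high, *Aspn*-high, fibroblast and *Cd79a*-high (B-cell gate) sums. Points are mice, bars are the mean and SD of 3 mice, with the lower arm ending at 0 where it would pass it. *Ndufa4l2* is high and *Ndufa4* low in pericytes, while *Cox4i1* and *Higd1a* lie near the other stromal classes.

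Both subunits of soluble guanylate cyclase, the receptor through which nitric oxide relaxes mural cells, were higher in pericytes than in the other stromal cells. Soluble guanylate cyclase is a dimer that makes cGMP when nitric oxide binds it. *Gucy1a3* (its alpha-1 subunit, now *Gucy1a1*, chr3:82092427-82145789, minus strand) was at 5710, 5377 and 5960 CPM, against means of 624 CPM in *Myh11*-high cells, 297 in *Aspn*-high cells and 107 in fibroblasts. *Gucy1b3* (the beta-1 subunit, now *Gucy1b1*, chr3:82032006-82074689, minus strand) was at 3229, 3365 and 3098 CPM, against 226, 132 and 5.75 CPM. A UMI of *Gucy1a3* was found in 81 of 82 pericytes, 152 of 157 *Myh11*-high cells, 458 of 697 *Aspn*-high cells, 8 of 27 fibroblasts and 31 of 1742 *Cd79a*-high cells. After thinning to 2000 UMIs the shares were 100% ± 0.0292 (SD, n = 3) of pericytes and 64.3% ± 2.26 of *Myh11*-high cells.

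The log2 fold changes against *Myh11*-high cells were 3.12 ± 0.27 (adjusted p = 3.69e-08) for *Gucy1a3* and 3.78 ± 0.20 (adjusted p = 6.75e-11) for *Gucy1b3*. *Pde5a*, the phosphodiesterase that breaks cGMP down, was at 4334, 5114 and 4750 CPM against a mean of 986 CPM, a log2 fold change of 2.19 ± 0.27 (adjusted p = 3.44e-06). *Prkg1*, the kinase that cGMP activates, was at 128, 184 and 171 CPM against 60.1 CPM, a log2 fold change of 1.28 ± 0.27 (adjusted p = 0.00112). That difference was not called when *Myh11*-high cells with a *Pdgfra* UMI were left out (log2 fold change 0.55, adjusted p = 0.142).

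*Mrvi1*, whose product is a substrate of that kinase, was lower, with 2 UMIs in pericytes against a mean of 95.1 CPM (adjusted p = 1.57e-05). Of 10 tested genes of the pathway 6 were higher and 1 was lower than in *Myh11*-high cells, and the median log2 fold change was 1.74. Against *Aspn*-high cells 7 were higher and 2 lower (median 2.02), the lower ones being *Mrvi1* and *Npr2*, and against fibroblasts 7 were higher and 0 lower (median 2.67).

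Receptors for vasoactive signals were mixed, with 5 higher and 3 lower of 14 tested than in *Myh11*-high cells (median log2 fold change 0.11). The thrombin receptor gene *F2r* was at 1425, 1249 and 1018 CPM against a mean of 85.4 CPM, a log2 fold change of 3.80 ± 0.20. The sphingosine-1-phosphate receptor gene *S1pr3* was at 595, 460 and 449 CPM against 5.99 CPM (6.46 ± 0.34), and the endothelin receptor gene *Ednra* at 472, 723 and 441 CPM against 106 CPM (2.27 ± 0.22). For these receptors no pericyte value overlapped a stromal class, and the largest adjusted p against *Myh11*-high cells was 2.09e-07.

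The angiotensin receptor gene *Agtr1a* was at 408, 381 and 263 CPM against means of 2.06 CPM in *Myh11*-high cells and 3.11 CPM in *Aspn*-high cells, with log2 fold changes of 7.32 ± 0.45 and 6.76 ± 0.33, the first 6.57 without mouse 2. The 27 fibroblasts held 1 *Agtr1a* UMI in all, too few for a fold change. The prostacyclin receptor gene *Ptgir* was at 93.4, 78.9 and 28.5 CPM against 3.08 CPM in *Myh11*-high cells (log2 fold change 4.39 ± 0.63, adjusted p = 2.34e-05). *Ednrb*, the other endothelin receptor gene, and *Ramp1*, a partner of the calcitonin receptor-like receptor, had no UMI in pericytes. With 3 UMIs over all pericytes as the floor, they were at least 19.0-fold and at least 45.4-fold lower than in *Myh11*-high cells (adjusted p = 1.24e-05 and 5.32e-08).

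Among ion channels, the receptor-operated cation channel gene *Trpc6* (chr9:8544142-8680741, plus strand) set pericytes apart. It was at 496, 565 and 513 CPM, against 2.40 to 5.65 CPM in *Myh11*-high cells and 1.35 to 1.36 CPM in *Aspn*-high cells, with no UMI in fibroblasts. The log2 fold changes were 7.10 ± 0.25 and 8.37 ± 0.22, and against fibroblasts the gene was at least 54.9-fold higher (floor of 3 UMIs over all fibroblasts). The background potassium channel gene *Kcnk3* was at 1027, 920 and 776 CPM against 308 CPM, a log2 fold change of 1.51 ± 0.19 (adjusted p = 4.74e-06).

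The ATP-sensitive potassium channel genes that mark pericytes of brain were not called higher than in *Myh11*-high cells. *Kcnj8* was at 39.3, 39.4 and 49.8 CPM beside a mean of 37.2 CPM in *Myh11*-high cells (adjusted p = 0.795), and was higher than in all other cells, at 13.7 CPM (adjusted p = 0.0125). *Abcc9* was at 19.7, 13.1 and 78.3 CPM beside 75.3 CPM and was called lower (adjusted p = 0.0498) although the values overlapped. Of 17 tested channel genes 5 were higher and 5 lower than in *Myh11*-high cells, with a median log2 fold change of 0.29.

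Contractile genes were far below the *Myh11*-high cells, which the gate had selected on *Myh11*. The pericytes were themselves limited in *Myh11* and *Aspn*. The 96 cells left out only by those limits held 5996 CPM of *Acta2*, against 421 CPM in the 82 pericytes pooled. How much of the difference the gates set was not tested. *Acta2*, smooth muscle alpha-actin, was at 447, 237 and 484 CPM against 6443, 6696 and 7669 CPM, and *Tagln*, an actin-binding protein gene of smooth muscle, at 354, 394 and 385 CPM against a mean of 3274 CPM. The log2 fold changes were -4.16 ± 0.24 (adjusted p = 2.03e-10) and -3.18 ± 0.27 (adjusted p = 3.12e-08). Calponin (*Cnn1*) and myocardin (*Myocd*), a coactivator of smooth muscle genes, had no UMI and were at least 45.4-fold and at least 11.8-fold lower.

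Of 16 tested contractile genes 15 were lower than in *Myh11*-high cells (median log2 fold change -2.40), and 11 were lower and 1 higher than in *Aspn*-high cells (median -1.71). The one not called against *Myh11*-high cells was the intermediate filament gene *Des*, at 521, 513 and 377 CPM beside 462 CPM (adjusted p = 0.942). *Cald1*, which encodes the actin-binding protein caldesmon, was at 1440, 1459 and 1417 CPM and the myosin light chain kinase gene *Mylk* at 747, 776 and 890 CPM, against 2033 and 1358 CPM in *Myh11*-high cells. Against the 27 fibroblasts 10 of the 16 were higher. When the *Dcn* condition was dropped from the fibroblast gate, *Acta2* and *Tagln* had log2 fold changes of -0.22 and -0.47 in place of 1.72 ± 0.31 and 1.38 ± 0.35. Without mouse 3 they were 2.33 and 2.17, and *Tagln* was not called against fibroblasts without mouse 4 (adjusted p = 0.0798).

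Notch receptors and several Notch targets were higher in pericytes, and Notch ligands were scarce. Signals pass when a ligand on one cell leads to cleavage of the receptor on its neighbour and the released domain joins the DNA-binding factor RBPJ. Beside *Notch3*, *Notch1* was at 256, 223 and 221 CPM against a mean of 29.9 CPM in *Myh11*-high cells (log2 fold change 2.91 ± 0.25, adjusted p = 3.39e-08). *Notch2* was at 157, 158 and 207 CPM against 45.2 CPM (1.93 ± 0.25, adjusted p = 6.26e-06). All 3 tested receptors were higher in each of the 3 stromal comparisons. *Notch4*, which is known from ECs, was at 34.4, 0 and 35.6 CPM and was not tested in those comparisons because of its low counts.

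Of the targets, *Heyl* was at 373, 342 and 406 CPM against 156 CPM in *Myh11*-high cells, a log2 fold change of 1.22 ± 0.16 (adjusted p = 9.03e-06). *Nrarp*, a feedback inhibitor of Notch, was at 93.4, 105 and 114 CPM against 9.94 CPM (3.30 ± 0.39, adjusted p = 5.3e-06), and *Hes1* at 211, 145 and 256 CPM against 125 CPM (0.71 ± 0.23, adjusted p = 0.0265). *Heyl* was not called against *Myh11*-high cells without a *Pdgfra* UMI (log2 fold change 0.27, adjusted p = 0.229), and *Hes1* was not called without mouse 2 (adjusted p = 0.185) or mouse 4 (adjusted p = 0.168). *Hey2* was at 39.3, 0 and 35.6 CPM beside 56.4 CPM (adjusted p = 0.146), *Hey1* had 3 UMIs and *Hes5* none. Of the 4 targets tested 3 were higher and 0 lower, with a median log2 fold change of 0.97.

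Among ligands only *Jag1* had more than 2 UMIs in pericytes. It was at 34.4, 65.7 and 21.4 CPM against 96.8 CPM in *Myh11*-high cells, where it was called lower (adjusted p = 0.0332) although the values overlapped. *Dll1* had 2 UMIs, *Dll4* 1, and *Dll3* and *Jag2* had 0. Of 14 tested genes of the machinery that cleaves and relays the signal 3 were higher (*Maml3*, *Adam10* and *Ncstn*) and 2 lower (*Rbpj* and *Maml2*) than in *Myh11*-high cells, with a median log2 fold change of 0.16.

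Promoter sequence is shown for a Notch receptor and a target that were high in pericytes and for a target that was not called, from RefSeq (GRCm38.p6), each from 250 bases before to 50 bases after the start site on the gene's strand. Capitals mark ACGTG, the core bound by hypoxia-inducible factors, or TGGGAA, the core bound by RBPJ, on either strand. ACGTG was chosen after the levels of the genes were known. The windows lie at chr17:32166841-32167140 (*Notch3*, minus strand), chr2:25180508-25180807 (*Nrarp*, plus strand) and chr10:30842734-30843033 (*Hey2*, minus strand).
Notch3: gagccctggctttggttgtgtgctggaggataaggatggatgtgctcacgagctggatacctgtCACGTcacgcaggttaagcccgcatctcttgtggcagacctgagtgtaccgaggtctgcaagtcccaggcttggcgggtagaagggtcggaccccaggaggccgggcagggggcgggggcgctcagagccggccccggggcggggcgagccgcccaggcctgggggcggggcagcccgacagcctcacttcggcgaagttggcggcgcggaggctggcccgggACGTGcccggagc
Nrarp: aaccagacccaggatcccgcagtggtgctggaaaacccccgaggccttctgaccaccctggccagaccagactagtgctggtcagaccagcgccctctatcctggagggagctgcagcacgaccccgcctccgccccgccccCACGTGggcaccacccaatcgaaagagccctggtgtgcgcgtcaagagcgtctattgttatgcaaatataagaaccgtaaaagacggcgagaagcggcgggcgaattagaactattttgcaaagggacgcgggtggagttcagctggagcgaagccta
Hey2: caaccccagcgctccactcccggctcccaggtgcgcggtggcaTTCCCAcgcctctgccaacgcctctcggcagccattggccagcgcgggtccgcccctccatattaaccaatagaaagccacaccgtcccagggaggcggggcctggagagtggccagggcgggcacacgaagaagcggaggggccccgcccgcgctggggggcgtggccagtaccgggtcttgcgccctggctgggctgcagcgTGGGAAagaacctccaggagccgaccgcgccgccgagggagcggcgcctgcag
TGGGAA stood at 2 places in the *Hey2* window, starting 207 and 3 bases before the start site, and in neither of the others. Of the 10 Notch receptors and targets 7 had a window in the table, and 2 of these (*Hes5* and *Hey2*) held TGGGAA, which 25.6% of all 32851 windows hold. ACGTG stood at 2 places in *Notch3* and, on both strands of 1 palindrome, in *Nrarp*, and it occurs in 19.6% of all windows. It was not counted over the other Notch receptors and targets, so the windows shown give no share to set beside that percentage. Of the 20 genes with the largest rise described below, 14 had a window, of which 3 held ACGTG and 5 TGGGAA. A match is a run of letters and not a bound site. *Hes1*, *Hey1*, *Heyl*, *Ndufa4l2*, *Cox4i2* and *Higd1b* were not among the sequences used.

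**Figure D4:**
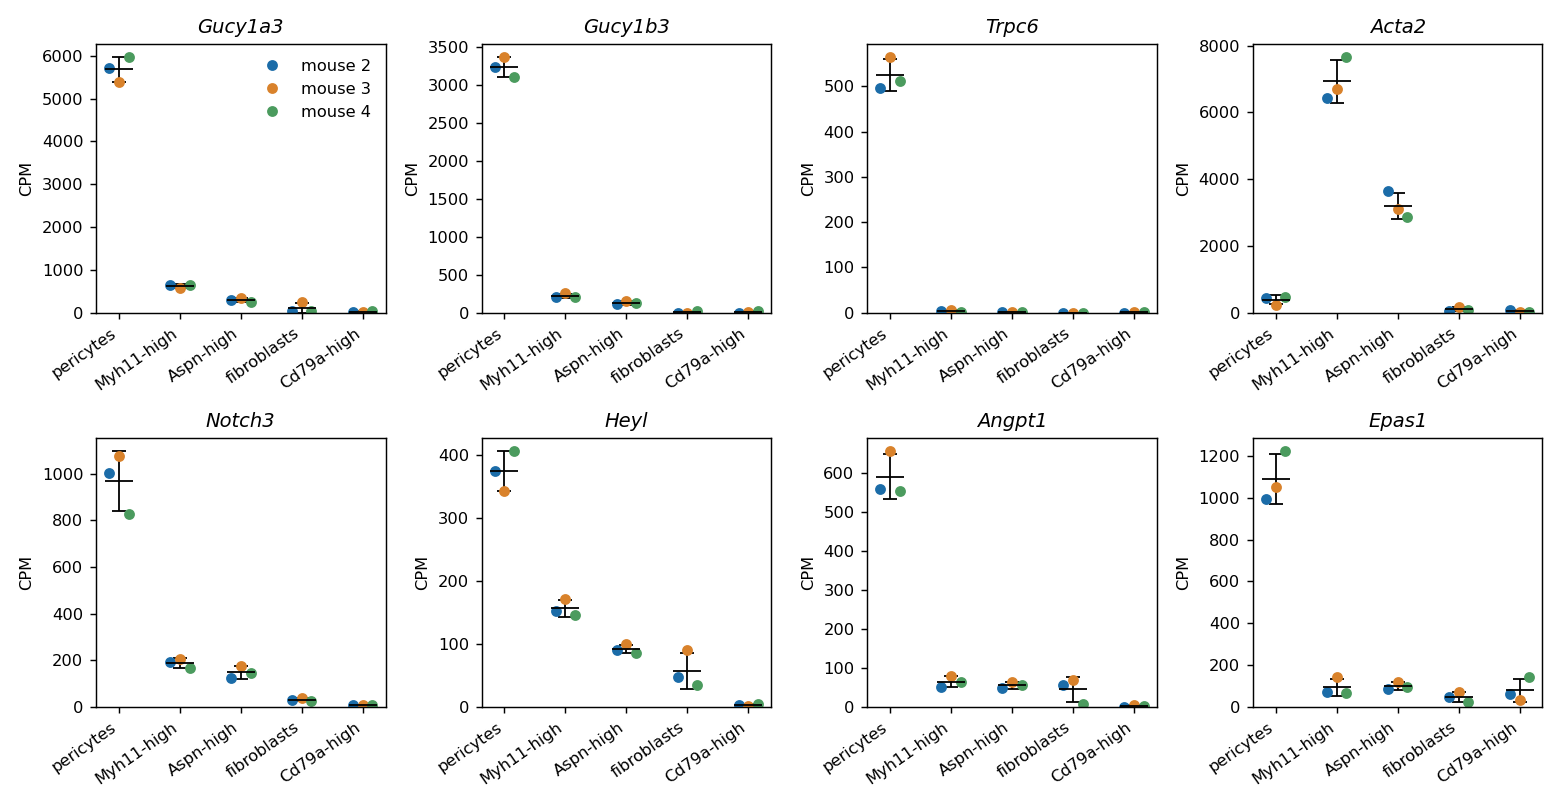
CPM of summed UMIs (y axes, from 0) of genes of the cGMP pathway (*Gucy1a3*, *Gucy1b3*), a channel (*Trpc6*), contraction (*Acta2*), Notch (*Notch3*, *Heyl*), a secreted signal (*Angpt1*) and a hypoxia factor (*Epas1*). Points are mice and bars the mean and SD of 3 mice, with the lower arm ending at 0 where it would pass it. Every gene drawn except *Acta2* is highest in pericytes among the 5 classes.

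A few signals to other vessel cells were high in pericytes. *Angpt1*, the ligand of Tek that steadies the endothelium, was at 560, 657 and 555 CPM against means of 65.0, 56.1 and 45.3 CPM in *Myh11*-high cells, *Aspn*-high cells and fibroblasts (log2 fold changes 3.12 ± 0.21, 3.31 ± 0.19 and 3.56 ± 0.33). *Kitl*, the ligand of Kit, was at 285, 394 and 399 CPM against 16.9, 19.3 and 84.7 CPM (4.26 ± 0.27, 4.10 ± 0.22 and 1.87 ± 0.30). The endothelin peptide gene *Edn3* was at 177, 223 and 178 CPM against 18.7, 14.6 and 15.3 CPM (3.22 ± 0.30, 3.59 ± 0.27 and 3.40 ± 0.49). The last rests on 5 UMIs in fibroblasts, of which mouse 2 gave 3, and was 4.20 without mouse 2 and 2.78 without mouse 3. No pericyte value of these genes overlapped another class. *Pdgfa*, a ligand for the receptor on neighbouring fibroblasts, was at 319, 421 and 285 CPM against 83.1, 63.7 and 39.5 CPM (1.94 ± 0.21, 2.31 ± 0.19 and 2.85 ± 0.35, the last 3.71 without mouse 4).

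More secreted signals were lower than higher. Of 26 tested 13 were lower and 5 higher than in *Myh11*-high cells (median log2 fold change -0.88), and 16 were lower and 5 higher than in *Aspn*-high cells (median -1.66). The growth factor gene *Igf1* had 2 UMIs in pericytes against 127, 403 and 248 CPM in the 3 other classes, and the chemokine gene *Cxcl12* had 3 UMIs against 145, 104 and 364 CPM. *Igf1* was not called against *Myh11*-high cells without a *Pdgfra* UMI (log2 fold change -0.23, adjusted p = 0.910). *Vegfa*, the main growth factor of ECs, was at 14.7, 26.3 and 28.5 CPM against 73.7, 58.7 and 87.4 CPM, with adjusted p-values of 0.0145, 0.0366 and 0.0144, and each of these calls was lost in several alternatives. *Pdgfra* was at 4.91, 0 and 107 CPM against 626, 395 and 329 CPM, and the 16 UMIs fell to 1 without the deepest cell. Of the 5 tested PDGF ligands and receptors 2 were higher (*Pdgfrb* and *Pdgfa*) and 3 lower (*Pdgfra*, *Pdgfrl* and *Pdgfd*) in each stromal comparison.

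Basement membrane genes went both ways. Of 16 tested basement membrane genes 9 were higher and 5 lower than in *Myh11*-high cells (median log2 fold change 0.80), 10 and 5 against *Aspn*-high cells and 8 and 3 against fibroblasts. The collagen IV chain *Col4a1* was at 6153, 6691 and 5383 CPM against 1178 CPM in *Myh11*-high cells and *Col4a2* at 3116, 3431 and 2934 CPM against 517 CPM, with log2 fold changes of 2.30 ± 0.16 and 2.54 ± 0.15. Nidogen (*Nid1*), which links laminin to collagen IV, was at 1558, 1315 and 1282 CPM against 243 CPM (2.46 ± 0.20), and laminin beta-1 (*Lamb1*) at 1150, 933 and 748 CPM against 237 CPM (1.94 ± 0.23). The 5 that were lower were the chains *Col4a5*, *Col4a6*, *Lama5* and *Lamb2*, and *Col18a1*.

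Of 22 tested genes of fibrillar and elastic matrix 13 were lower and 1, *Postn*, was higher than in *Myh11*-high cells (median log2 fold change -1.79), and against *Aspn*-high cells 19 were lower and 1 higher (median -2.90). The pericyte gate limited *Myh11* and *Aspn*, and the 96 cells left out only by those limits held 1938 CPM of *Col1a1*. The 82 pericytes pooled held 424 CPM, and how much of the low matrix the gates set was not tested. Elastin (*Eln*) was at 256, 145 and 1324 CPM against 31590, 37937 and 11428 CPM in *Myh11*-high cells, *Aspn*-high cells and fibroblasts and 693 CPM in *Cd79a*-high cells. The high value of mouse 4 fell to 235 CPM without the deepest cell, which brings all 3 mice below the *Cd79a*-high mean that served as background. Fibronectin (*Fn1*) was at 29.5, 13.1 and 21.4 CPM against 370, 867 and 1332 CPM, and the elastin crosslinking gene *Loxl1* at 4.91, 0 and 42.7 CPM against 411, 602 and 609 CPM. The log2 fold changes of *Eln*, *Fn1* and *Loxl1* against *Aspn*-high cells were -6.09 ± 0.50, -5.25 ± 0.50 and -5.23 ± 0.38. With a threshold of 2 UMIs they were -2.51, -4.42 and -3.34. Without the deepest cell, *Eln* was at -7.49 and *Loxl1* at -6.95, and *Loxl1* in mouse 4 was at 8.11 CPM. Without mouse 4 they were at -7.55 and -7.40, and without mouse 2 *Fn1* was at -5.84 and *Loxl1* at -4.57.

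Transcription factors of lung mesenchyme were mixed. *Tbx2* (1479, 1459 and 1424 CPM), *Tbx5* (816, 697 and 933 CPM), *Ebf1* (1302, 1065 and 1061 CPM) and *Nr2f1* (462, 486 and 420 CPM) had log2 fold changes of 1.71 ± 0.15, 1.89 ± 0.24, 2.85 ± 0.21 and 4.90 ± 0.24 against *Myh11*-high cells. *Ebf1* is also a factor of B cells, at 1898 CPM in *Cd79a*-high cells. *Foxf1*, needed for lung vessel growth, was at 373, 394 and 456 CPM against 132 CPM (1.57 ± 0.15). *Gata6* had 1 UMI and *Prrx1* 4, against 163 and 134 CPM. Of 29 tested factors 14 were higher and 8 lower than in *Myh11*-high cells and 7 were not called, with a median log2 fold change of 0.15.

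The hypoxia-inducible factor alpha subunits differed from each other. *Epas1* (chr17:86753700-86833410, plus strand), which encodes HIF-2alpha and is known from ECs, was at 993, 1052 and 1225 CPM against means of 93.3, 100 and 47.9 CPM in the 3 stromal classes (log2 fold changes 3.53 ± 0.23, 3.37 ± 0.21 and 4.36 ± 0.35). All other cells together held 533 CPM. *Hif1a* was at 63.9, 145 and 107 CPM against 168 CPM in *Myh11*-high cells, where it was lower (adjusted p = 0.00613), and 104 CPM in fibroblasts (adjusted p = 0.582). It was also called lower than in *Aspn*-high cells. *Hif1a* was added to the genes described after its values were seen.

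Immediate early genes, which are known to rise within minutes of a stimulus such as dissociation of tissue, were low in pericytes. Of 12 tested, 6, 7 and 11 were lower than in *Myh11*-high cells, *Aspn*-high cells and fibroblasts, and 0 were higher in any of these comparisons (median log2 fold changes -1.91, -1.94 and -4.92). *Egr1* was at 14.7, 0 and 35.6 CPM against 316, 299 and 939 CPM, and *Jun* at 44.2, 158 and 92.6 CPM against 372, 311 and 987 CPM. The part of depth or handling in this was not tested. Of 16 cell cycle genes only 1 could be tested among stromal cells and it was not called. The proliferation gene *Mki67* had 9 UMIs, all in shallow cells of mouse 2.

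Beyond the lists, 555 genes were higher and 491 lower than in all 3 stromal classes. The 20 with the largest change in their least changed comparison included genes with hardly a UMI elsewhere in the stroma. *Adcy8*, a calcium-stimulated adenylyl cyclase, was at 555, 486 and 399 CPM in pericytes, had no UMI in *Myh11*-high cells or fibroblasts and 1 UMI in all *Aspn*-high cells. It was at least 329-fold higher than in *Myh11*-high cells and at least 52.4-fold higher than in fibroblasts, with 3 UMIs over a class as the floor.

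*Pdzd2*, a PDZ domain gene, was the most abundant of the 20, at 6757, 5574 and 5483 CPM against 44.4, 38.3 and 34.5 CPM (log2 fold changes 6.99 ± 0.24, 7.19 ± 0.23 and 7.26 ± 0.29). The synaptic adhesion gene *Clstn2* was at 477, 421 and 456 CPM and had 2 UMIs in all *Myh11*-high cells. *Vtn*, the gene of the adhesive plasma protein vitronectin, was at 211, 118 and 107 CPM and *Epor*, the erythropoietin receptor gene, at 88.5, 105 and 42.7 CPM. *Agtr1a* and *Trpc6* were also among the 20, as were *Pde8b*, *Cdk18*, *Plxdc1*, *Tlr12*, *Sstr2*, *Slc4a8*, *Gprc6a*, *Chst5*, *Grap*, *Psme2b* and *9930111J21Rik2*. *Psme2b* and *9930111J21Rik2* have close copies in the genome, so their counts are uncertain, and *Grap* was not called against all other cells (adjusted p = 0.207).

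The 10 genes with the largest fall had no UMI in any pericyte. They were *Ogn*, *Limch1*, *Cpe*, *Ptgis*, *Mfap5*, *Osr1*, *Crispld2*, *Adamts15*, *Gstt1* and *Nav2*. The small proteoglycan osteoglycin (*Ogn*) averaged 271, 441 and 421 CPM in *Myh11*-high cells, *Aspn*-high cells and fibroblasts, and was at least 38.0-fold, 61.9-fold and 58.6-fold lower in pericytes. *Cpe*, carboxypeptidase E, was at least 62.5-fold lower than in *Myh11*-high cells, and *Ptgis*, prostacyclin synthase, at least 26.4-fold.

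Of 24 genes listed as mural beside the pericyte markers, 20 could be tested and 15 were higher and 1 lower than in *Myh11*-high cells (median log2 fold change 2.02). Several of them were described above (*Ndufa4l2*, *Gucy1a3*, *Gucy1b3*, *Trpc6*, *Kcnk3*, *Ebf1*, *Heyl* and *Tbx2*), so this count partly repeats those results. *Mcam*, the adhesion molecule CD146, was at 2098, 1775 and 1723 CPM against 212 CPM (3.09 ± 0.21), *Rgs5*, a regulator of G protein signalling, at 300, 302 and 285 CPM against 39.4 CPM (2.83 ± 0.35), and *Art3* at 447, 368 and 342 CPM against 2.46 CPM (7.17 ± 0.32). *Cspg4*, the NG2 proteoglycan gene, was at 541, 578 and 520 CPM against 134 CPM. *Cd248* was at 226, 223 and 285 CPM beside 267 CPM and was not called (adjusted p = 0.507), and *Anpep*, a marker of brain pericytes, had 0 UMIs. *Rgs5* averaged 125 CPM in *Aspn*-high cells, and its call there was lost without mouse 2 (adjusted p = 0.0706) and with a filter of 500 genes and 10% mitochondrial UMIs (log2 fold change 0.80, adjusted p = 0.129).

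Among the pericytes themselves, levels differed between shallow and deep cells, and the gene lists went both ways. In shallow and deep cells the contractile genes summed to 11226 and 6236 CPM and the Notch targets to 1417 and 684 CPM. Basement membrane genes summed to 6304 and 21274 CPM. Summed over mice, the nuclear RNA *Malat1* was at 4816 and 41682 CPM in shallow and deep cells, *Postn* at 1310 and 6877, *Pdgfrb* at 815 and 3561 and *Col4a1* at 1700 and 6302 CPM. *Gucy1a3* stood at 5595 and 5743 CPM, and *Ndufa4l2* (1523 and 1187 CPM) and *Tbx2* (2160 and 1406 CPM) were not lower in the shallow cells. By mouse, *Malat1* in shallow cells was at 189, 30521 and 1649 CPM, so that mouse 3 with its 4 shallow cells stood apart. *Sftpc* was at 1806 and 311 CPM. The shallow cells hold 28238 UMIs in all and were selected on *Higd1b* and *Cox4i2*, at 3541 and 3506 CPM in them and 1621 and 2160 CPM in deep cells. No test was made, and the source of the difference was not tested.

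**Figure D5:**
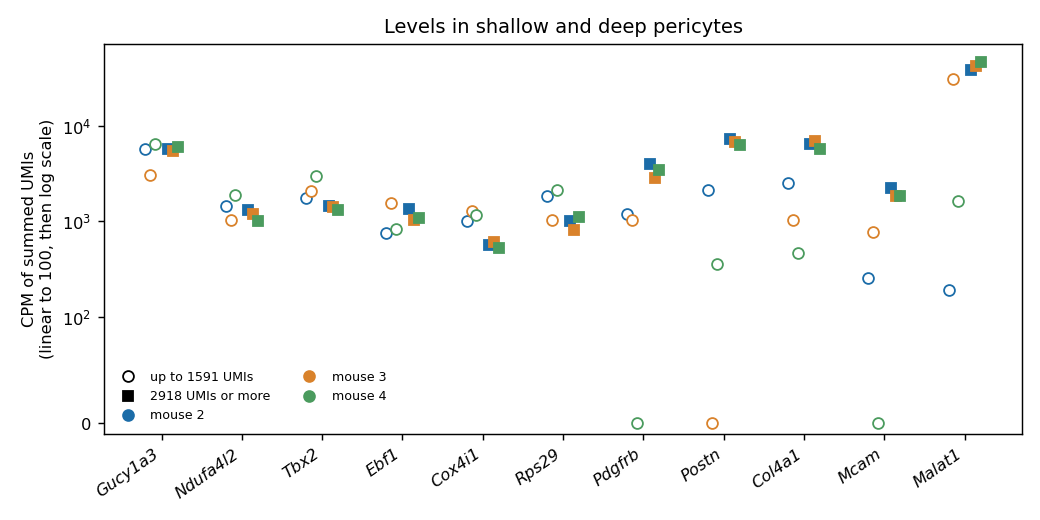
CPM of summed UMIs (y axis, linear to 100 and then on a log scale) of 11 genes in shallow (open circles) and deep (filled squares) pericytes, coloured by mouse. For *Gucy1a3* and *Ndufa4l2* shallow cells lie above deep ones in mice 2 and 4 and below in mouse 3, and for *Tbx2* above in each mouse, whereas *Pdgfrb*, *Postn*, *Col4a1* and *Mcam* lie lower in the shallow cells of each mouse.

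Within the 52 deep cells, each thinned to 2000 UMIs, *Malat1* and 6 mitochondrial genes were among the 10 that varied most from cell to cell. The Fano factor, the variance over the mean, is near 1 for sampling alone and had a median of 0.84 over 453 genes with a mean of at least 0.5 UMIs. It was above 1 in all 3 mice for 108 genes and above 2 for 10. Thinning to 1000 UMIs admitted some shallow cells (32, 12 and 19 cells in all) and left 190 genes, and 7 of its 10 highest genes were among these 10, with cells and depth changed together. *Malat1* led with 17.6, 26.4 and 13.6 in mice 2, 3 and 4. The others were the mitochondrial genes *mt-Co1*, *mt-Atp6*, *mt-Co3*, *mt-Nd4*, *mt-Nd2* and *mt-Nd3*, with *Gm42418*, *Pdzd2* and *Cst3*. The Fano factor was 3.58, 4.21 and 2.65 for *Pdzd2* and 2.99, 4.25 and 2.22 for the protease inhibitor gene *Cst3*. *Postn* reached 2.53, 1.51 and 2.95, and among the cGMP and Notch genes measured *Pde5a* was highest at 1.92, 1.89 and 1.80.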

How the data were processed

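The authors deposited 1 matrix of counts for each of the 3 mice (10x Genomics 3′ v3 chemistry), whole-number UMI counts per gene and cell, with no normalization. Per the submitters' processing notes these came from Cell Ranger 3.0.2 and mm10, and the annotation version is not given in the sources used here. Gene positions were read from the reference annotation of GRCm38, the same build. The series' design text speaks of 5677 cells, while the counts held 3034, 3135 and 3475 cells (9644 in all, of which 7642 passed the filter), and no column of another sample was used (0 found).

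The cell filter was 200 or more genes and no more than 20% mitochondrial UMIs, and gates used raw UMIs. The members and all 27 gene lists (359 genes) were chosen with earlier results of these data known. Doublets were scored by nearest neighbours against simulated doublets (scikit-learn 1.9.0) at a rate of 0.8% per 1000 cells, marked and kept, and their removal was an alternative.

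UMIs were summed per mouse and class and tested with the edgeR 4.0.16 quasi-likelihood test (R 4.3.3, TMM scaling, filterByExpr, Benjamini-Hochberg adjustment over all genes tested). The 12 sums of pericytes and the 3 stromal classes shared 1 fit, and pericytes and all other cells (6 sums) had another. The p-values measure the spread between 3 mice. The classes of a mouse come from the same animal, and over the pairs of 4 classes in each of 3 mice (18 values) the deviations of same-mouse sums from their class means correlated at 0.0366 to 0.351 over 5142 genes. The fit with mouse as a block, DESeq2 1.42.0, other gates and filters and leaving out each mouse were alternatives. The 3 libraries were not copies of each other, since the chi-square of their counts per degree of freedom was 8.75 or more.

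Genes named were the pericyte markers, respiratory paralogues and Notch receptors, ligands and targets in full, up to 8 of each other list by level or change, the 20 highest and 10 lowest by their least changed stromal comparison (adjusted p under 0.05 in all 3, the same direction in every mouse, at least 20 CPM in pericytes or in each comparator), and the 10 genes with the highest Fano factors. Exact binomial intervals used scipy 1.17.1 in Python 3.11.15. A class with no UMI was given a floor of 3 UMIs, for counting error only. Promoter windows were RefSeq's (GRCm38.p6). Protein sequences were not analysed here, and some genes that the rule or the lists name are not reported here.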

Additional observations from a re-analysis of the deposited data

Results flagged for a closer look

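The filter on genes and mitochondrial UMIs left out 10 cells that met the pericyte gate (6, 1 and 3 in mice 2, 3 and 4), a signal outside the cells analysed. Their 17188 UMIs held 3200 CPM of *Pdgfrb* (9 cells), 10414 CPM of *Postn* (9 cells), 1105 CPM of *Notch3* (7 cells) and 582 CPM of *Ndufa4l2* (6 cells), and 1 cell held *Ndufa4*.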

How the results depend on the processing

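Of 68 repeats of the share of pericytes, the 4 counts of genes called and the count of varying genes, 64 stayed within 1 SD or 1.5 times the value given. The 4 others left out a mouse. Some repeats could not have moved: with 3 mice, leaving out 1 cannot shift the mean share by 1 SD. No pericyte was marked as a doublet, so removing doublets could not change the varying genes. Leaving out each mouse in turn gave 1293 to 1695 genes called against *Myh11*-high cells, 1389 to 1894 against *Aspn*-high cells, 1190 to 1465 against fibroblasts and 1583 to 3261 against all other cells. With mouse as a replicate block the counts were 1911, 2126, 1715 and 3553, and the block moved none by over 1.5 times. DESeq2 called 1961, 2165, 1749 and 3607. The share of pericytes ranged from 0.759 to 1.37% without each mouse. Of 2367 repeats of log2 fold changes of named genes, 2342 kept direction and call, 23 lost the call and 2 reversed. Sizes were less stable: 182 moved by over 1.5 times, of which 62 came from leaving out a mouse, 31 each from *Myh11*-high cells without a *Pdgfra* UMI and from fibroblasts without the *Dcn* condition, 29 from a threshold of 2 UMIs for the gate, 10 from a threshold of 5 and 12 from leaving out the deepest cell. Both reversals came when fibroblasts were gated without the *Dcn* condition, an alternative chosen after seeing the data: *Acta2* at -0.22 (adjusted p = 0.541) and *Tagln* at -0.47 (adjusted p = 0.0164), and the cause was not tested. That gate gave 2403 genes called. Taking levels as means over cells, 34 of 58 levels moved by more than 1 SD. The fibroblast sums rest on 27 cells and the shallow pericytes hold 28238 UMIs in all, which limits what both can show.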
